A study of Homo sapiens with 6 samples.

Results

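The p53 target and GADD45 genes examined here are MDM2, CCNG1, SESN1, ZMAT3, TP53I3, TP53INP1, BTG2 and FDXR, which p53 is known to activate, together with the stress genes GADD45A and GADD45B. They were taken as listed, by gene symbol. A probe set, which is a group of oligonucleotides that reads 1 or more transcripts, was used where the array annotation gave it that symbol alone. Of the 10 genes, 8 had such a probe set, with 26 of the 41091 probe sets that carry 1 symbol, and 8 of 19775 genes in all. BTG2 and FDXR were not analysed here, since no probe set carries their symbol in the annotation used.

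RNA of 2 human cholangiocarcinoma lines was hybridized to Affymetrix expression arrays, with 1 array for each of 6 conditions. KKU-100 cells, labelled as a poorly differentiated cholangiocarcinoma, and HuCCT1 cells, labelled as a bile duct carcinoma, each received the solvent, regorafenib at 1 μM (low dose) or regorafenib at 10 μM (high dose). Regorafenib is an oral inhibitor of several receptor and RAF kinases, and the doses given here are those of the labels, and the text of the paper gives lower ones. The labels also describe all cells as stably transduced and selected with puromycin. They name no construct, so whether treated and solvent cells carry the same one is not known.

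The transcription factor p53 is held at a low level by MDM2, a ubiquitin ligase that is itself a p53 target, and accumulates after DNA damage. It then switches on genes of cell cycle arrest, repair, redox control and death, many of which serve as readouts of p53 activity. GADD45 proteins are small stress sensors that bind the replication factor PCNA, the kinase CDK1 and the kinase MAP3K4, and their genes also answer to p53-independent signals, such as the ATF4 branch of the amino acid and endoplasmic reticulum stress response (GADD45A) and NF-kB or TGF-beta (GADD45B).

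The deposited signals were on a linear scale, with array medians between 28.8 and 29.3. Of 5 markers of biliary and simple epithelium, KRT7, KRT8 and KRT18 were bright in both lines, whereas KRT19 and EPCAM were at 11.1 or below on the 3 arrays of KKU-100, under the array median, and at 6432 or above in HuCCT1. Markers of other cell types were dimmer but not all under the array median. PTPRC, CDH5 and ALB lay at 10.8 or below on all 6 arrays, but CD3E of leukocytes reached 44.3, PECAM1 of endothelium 74.1, TTR of hepatocytes 88.6 and COL1A1 of fibroblasts 197, and their part in the results was not tested. A change was called past 1.5-fold, which is 0.585 on the log2 scale and the cutoff of the study. With 1 array a condition such a call has no replicate check and no p-value, both doses of a line share its solvent array, and a change in part of the cells cannot be told apart from a change in all. A gene is read by its probe set of highest mean signal unless another is named.

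By their brightest probe sets, GADD45A and GADD45B moved most, and the 6 p53 target genes stayed within 1.5-fold in all 6 comparisons of 2 arrays (each dose with solvent, and the high with the low dose, in each line). The log2 fold changes of the 6 target genes ran between −0.46 and 0.55 on these probe sets. Other probe sets of MDM2 and ZMAT3 passed the cutoff, as given below. In KKU-100, the low dose had 0 of the 8 genes rising and 2 falling, the high dose 1 rising and 1 falling, and 2 rose and 0 fell between the low and the high dose. Among the 12694 genes of that line at or above the level filter, which is the median of all probe sets, 9.75% rose and 7.32% fell at the low dose, 9.44% rose and 4.86% fell at the high dose, and 4.53% rose and 1.74% fell between the doses. In HuCCT1, 1 of the 8 genes rose at the low dose, and 2 rose at the high dose as well as between the doses, while 0 fell in any of the 3. The background in that line, over 12789 genes, was 3.68% rising and 3.32% falling at the low dose, 8.23% rising and 6.44% falling at the high dose, and 6.57% rising and 4.64% falling between the doses. The median log2 fold change of the 8 genes was −0.12 (low), 0.22 (high) and 0.14 (high against low) in KKU-100, where that of all genes was 0.06, 0.06 and −0.01. In HuCCT1 it was 0.21, 0.34 and 0.28, where that of all genes was 0.02, 0.02 and −0.01.

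**Figure D1:**
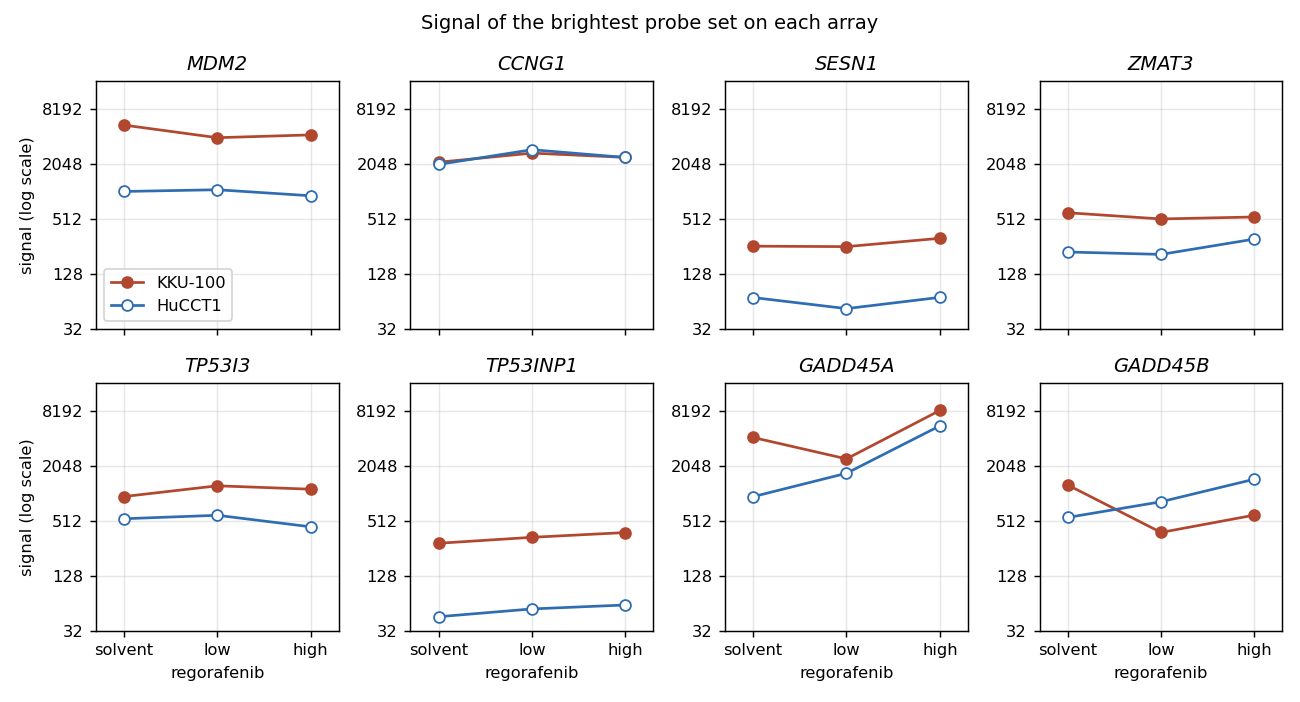
Signal (log scale) of the brightest probe set of each of the 8 measured genes on the solvent, low dose and high dose array of KKU-100 (filled) and HuCCT1 (open), 1 array a point. GADD45A reaches 8230 in KKU-100 and 5585 in HuCCT1 at the high dose, and GADD45B runs down with the low dose in KKU-100 and up with dose in HuCCT1.

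GADD45A, whose protein binds PCNA and restrains entry into mitosis, is read by a single probe set. Its signal was 4166 (solvent), 2430 (low dose) and 8230 (high dose) in KKU-100. In HuCCT1 it was 938 (solvent), 1691 (low dose) and 5585 (high dose). The high dose array was thus the brightest of each line, and the low dose array was the dimmest in KKU-100 but the middle one in HuCCT1. Against solvent GADD45A had log2 fold changes of −0.78 (low dose) and 0.98 (high dose) in KKU-100. In HuCCT1 it was 0.85 and 2.57, which is 1.80-fold and 5.96-fold. The high dose in HuCCT1 placed GADD45A at rank 20 from the top of 12789 genes. Between the doses, a comparison that uses no solvent array, GADD45A was higher at the high dose by 1.76 in KKU-100 (rank 28 from the top) and by 1.72 in HuCCT1 (rank 25).

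GADD45B, a relative induced by cytokines and stress, went opposite ways against solvent in the 2 lines. Its brightest probe set (207574_s_at) read 1260 (solvent), 381 (low dose) and 590 (high dose) in KKU-100. In HuCCT1 it read 556, 825 and 1457. Both treated arrays were dimmer than solvent in KKU-100, and both were brighter in HuCCT1. Its log2 fold changes were −1.73 (low dose) and −1.09 (high dose) in KKU-100, rank 76 and 145 from the bottom. In HuCCT1 it was 0.57, just inside the cutoff, and 1.39, rank 129 from the top. All 4 probe sets of the gene were at or above the level filter in both lines and shared these signs. In KKU-100 they ran from −1.73 to −0.45 at the low dose, where 3 were lower past 1.5-fold, and from −1.20 to −0.65 at the high dose, where all 4 were. In HuCCT1 they ran from 0.29 to 0.57 at the low dose, with 0 past 1.5-fold, and from 0.81 to 1.39 at the high dose, with all 4 higher. At the high against the low dose GADD45B was higher in both lines, by 0.63 in KKU-100 and 0.82 in HuCCT1, but in KKU-100 only 1 of its 4 probe sets passed the cutoff and the dimmest (213560_at) had −0.20.

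The third member of the family, GADD45G, lay near the level filter, with signals between 31.4 and 43.9 on the 6 arrays and log2 fold changes against solvent between −0.23 and 0.13.

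**Figure D2:**
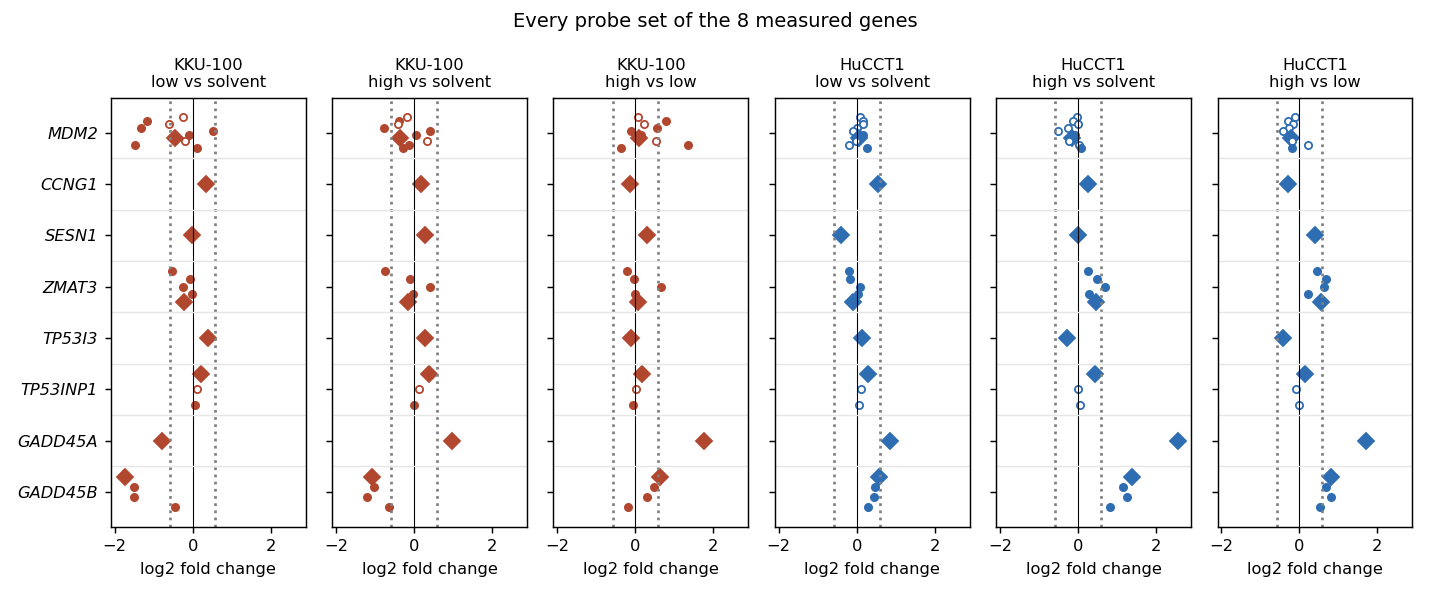
Log2 fold change of each of the 26 probe sets in 6 comparisons of 2 arrays, KKU-100 (3 panels on the left, red) and HuCCT1 (3 on the right, blue); diamonds are the brightest probe set of a gene, open marks lie below the level filter of the line and dotted lines mark 1.5-fold. The 4 GADD45B probe sets lie left of 0 against solvent in KKU-100 and right of 0 in HuCCT1, and the 10 of MDM2 spread from −1.48 to 0.53 at the low dose in KKU-100.

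MDM2, the ubiquitin ligase that degrades p53, has an internal promoter in its first intron that p53 drives, and SESN1 encodes sestrin 1, which damps mTORC1 signalling. The RefSeq promoter table (GRCh38.p14) lists 16 start sites for 8 of the 10 genes, with none for GADD45A or TP53INP1. In the 250 bases before each start, a pair of p53 half-sites was looked for, each with at most 1 mismatch outside its fixed C and G and at most 13 bases between them. It was found before 2 neighbouring start sites of MDM2, and in 1.57% of all 35116 windows. The half-site is its own reverse complement, so that both strands are covered. The AP-1 motif TGANTCA, searched on both strands, was in the same 2 windows and in 6.57% of all windows. Exact p53 half-sites were found before 1 start of SESN1 and 1 of FDXR, which was not measured, and in 5.57% of all windows. GADD45B, CCNG1, ZMAT3, TP53I3 and BTG2 had none of these letters in their windows, which says nothing of sites elsewhere in the genes. The windows of MDM2 (plus strand, chr12:68808767-68809016) and of SESN1 (minus strand, chr6:109008989-109009238) are shown because they hold the p53 letters of genes that were measured. Capitals mark the AP-1 motif and then the half-site pair in MDM2, with first bases 118, 94 and 84 bases before the start, and the half-site in SESN1, 49 bases before it.
MDM2: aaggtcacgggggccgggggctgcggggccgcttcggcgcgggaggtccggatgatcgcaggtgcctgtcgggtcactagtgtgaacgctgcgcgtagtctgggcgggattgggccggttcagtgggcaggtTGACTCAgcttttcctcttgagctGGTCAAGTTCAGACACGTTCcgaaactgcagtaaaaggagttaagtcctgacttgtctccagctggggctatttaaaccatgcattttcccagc
SESN1: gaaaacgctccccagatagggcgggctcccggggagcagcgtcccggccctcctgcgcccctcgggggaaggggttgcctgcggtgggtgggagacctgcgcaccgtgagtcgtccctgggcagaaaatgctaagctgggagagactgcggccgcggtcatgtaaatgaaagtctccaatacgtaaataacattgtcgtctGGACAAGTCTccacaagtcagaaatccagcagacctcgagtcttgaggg

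The brightest MDM2 probe set (229711_s_at) read 5402 (solvent), 3932 (low dose) and 4220 (high dose) in KKU-100. In HuCCT1 it read 1015, 1060 and 911. The spread over the arrays of a line was under 1.5-fold in both, and the low and high dose were at −0.46 and −0.36 in KKU-100 and 0.06 and −0.16 in HuCCT1 on the log2 scale, relative to solvent. The probe sets of MDM2 did not move alike. Of 7 at or above the level filter in KKU-100, 3 were lower past 1.5-fold at the low dose and 0 higher, and 1 was lower at the high dose. At the high against the low dose 2 of the 7 were higher past 1.5-fold, over a range of −0.38 to 1.35. The most changed, 238733_at, read 261 (solvent), 93.6 (low dose) and 238 (high dose) in KKU-100, and 11.8, 10.3 and 12.0 in HuCCT1, below the filter. Next came 217373_x_at, with 116, 46.3 and 67.8 in KKU-100, and 205386_s_at, with 59.8, 26.7 and 45.9. All 3 were dimmest at the low dose, and 217542_at ran the other way, with 121, 174 and 160. Of the 3 MDM2 probe sets past the filter in HuCCT1, 0 passed the cutoff in any comparison of that line. Which transcripts of MDM2 these probe sets read was not analysed here.

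SESN1 read 256, 253 and 312 in KKU-100 and 70.2, 53.1 and 70.5 in HuCCT1, for solvent, low and high dose in turn. Relative to solvent its log2 fold changes were −0.02 and 0.29 in KKU-100 and −0.40 and 0.01 in HuCCT1. The high dose array was brighter than the low dose array in both lines, by 0.30 and 0.41.

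CCNG1, which encodes cyclin G1, a partner of the phosphatase PP2A that acts on MDM2, was near the cutoff at the low dose in HuCCT1. It read 2119, 2666 and 2397 in KKU-100 and 2005, 2906 and 2391 in HuCCT1, for solvent, low and high dose. The low dose array was the brightest of each line, with a log2 fold change of 0.33 in KKU-100 and 0.54 in HuCCT1, and the high dose had 0.18 and 0.25.

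ZMAT3, an RNA-binding zinc finger protein that acts in growth suppression by p53, read 594, 508 and 534 in KKU-100 and 221, 208 and 306 in HuCCT1. In HuCCT1 the high dose stood above solvent on all 5 probe sets, by 0.25 to 0.70, with 1 past 1.5-fold, and above the low dose by 0.23 to 0.67, with 2 past it. In KKU-100 the 5 probe sets ran from −0.75 to 0.40 at the high dose, with 1 lower past 1.5-fold and 0 higher, so they had no common sign. At the high against the low dose in that line 1 was higher past 1.5-fold and 0 lower.

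TP53I3, an oxidoreductase also called PIG3, read 941, 1233 and 1132 in KKU-100, with log2 fold changes against solvent of 0.39 and 0.27. In HuCCT1 it read 538, 587 and 439, with 0.13 and −0.29. TP53INP1, a stress protein that acts in p53 signalling and autophagy, read 290, 337 and 380 in KKU-100 and 45.6, 55.5 and 61.3 in HuCCT1, so that each line had its brightest array at the high dose. Its log2 fold changes were 0.21 and 0.39 in KKU-100 and 0.29 and 0.43 in HuCCT1, all within 1.5-fold. Its other 2 probe sets stayed between −0.01 and 0.13 against solvent, and 1 of them was past the level filter, in KKU-100 only.

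A change common to both lines was tested with limma over the 6 arrays, blocking on cell line, which left 2 residual degrees of freedom, and limma called 0 of the 8 genes at either dose or between the doses. The background was 0.0% of 12833 genes called in each of these 3 contrasts, with 1438, 1914 and 1334 genes at an unadjusted p under 0.05 for low dose, high dose and high against low dose. Among the 8 genes, 1, 2 and 1 had such a p. At the high dose GADD45A averaged a log2 fold change of 1.78 (standard error 0.41, limma adjusted p = 0.175) and was higher in both lines. TP53INP1 averaged 0.41 (standard error 0.15, limma adjusted p = 0.301), also higher in both. At the low dose CCNG1 averaged 0.43 (standard error 0.09, limma adjusted p = 0.376), higher in both lines. Between the doses GADD45A averaged 1.74 (standard error 0.41, limma adjusted p = 0.395). The smallest adjusted p of any gene was 0.299, 0.0793 and 0.201 in the 3 contrasts, so that calls of 0 do not show that the 8 genes were steady. Leaving out a solvent array changed these calls, and with it the direction, since solvent is then known from the other line alone. Without the solvent array of HuCCT1, limma called GADD45A lower at the low dose (−0.77, adjusted p = 0.0111) and higher at the high dose (0.97, adjusted p = 0.0139), and called GADD45B lower at both (−1.77, adjusted p = 0.00829, and −1.05, adjusted p = 0.0254). Without the solvent array of KKU-100, limma called both genes higher at the high dose, GADD45A at 2.58 (adjusted p = 0.000568) and GADD45B at 1.34 (adjusted p = 0.0140), and called neither at the low dose (0.84 and 0.61). GADD45B at the high dose thus turned with the solvent array left out, and its limma adjusted p ran from 0.0140 to 0.966 over the alternatives. At the high against the low dose both genes were called higher without either solvent array, GADD45A at 1.74 and GADD45B at 0.73. Over all alternatives the limma adjusted p of GADD45A at the high dose ran from 0.000568 to 0.674. Whether the lines differ in their response was tested with both doses taken as repeats of regorafenib. The difference between the doses then counts as error, so calls of 0 do not show that the lines responded alike. Limma then called 0 of the 8 genes against a background of 0.0% of 12833, with 1050 genes at an unadjusted p under 0.05, and GADD45B had a difference (KKU-100 minus HuCCT1) of −2.39 (standard error 0.61, limma adjusted p = 0.601).

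The lines differed in the level of most of these genes. KKU-100 stood above HuCCT1 under all 3 treatments for MDM2, SESN1, ZMAT3, TP53I3, TP53INP1 and GADD45A. With treatment as a block, limma called these 6 of the 8 genes, all higher in KKU-100. Of all 12833 genes 27.9% were called higher in KKU-100, and 54.1% were called in either direction. The log2 difference between KKU-100 and HuCCT1 was 2.63 (standard error 0.12, limma adjusted p = 6.28e-05) for TP53INP1, 2.17 for MDM2 and 2.09 for SESN1. It was 1.17 for ZMAT3 and 1.08 for both TP53I3 and GADD45A. With solvent the ratio of KKU-100 over HuCCT1 was 6.37 for TP53INP1, 5.32 for MDM2, 4.44 for GADD45A and 3.65 for SESN1. For GADD45A the ratio was only 1.44 under the low dose and 1.47 under the high dose, both within 1.5-fold. CCNG1 differed by −0.01 (standard error 0.08), with ratios of 1.06, 0.917 and 1.00 under solvent, low and high dose. GADD45B had 2.26 times the HuCCT1 signal in KKU-100 with solvent, and 0.462 and 0.405 times under the low and high dose, so that the order of the lines turned. The GADD45A difference of 1.08 (limma adjusted p = 0.0389) was not called without the trend option (0.0574), without the low dose array of HuCCT1 (0.0540) or without that of KKU-100 (0.0539), over a range of 0.000512 to 0.0574, and was 0.54 without either solvent array. GADD45B had a difference of −0.41 (limma adjusted p = 0.523), which was called at −1.21 without the solvent array of HuCCT1 (0.000197) or of KKU-100 (0.000235), was at 0.03 without either high dose array, and had an adjusted p of 0.000197 to 0.971 over the alternatives. The 3 arrays of a line are not stated to be separate cultures, so these p-values measure the spread between arrays only.

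**Figure D3:**
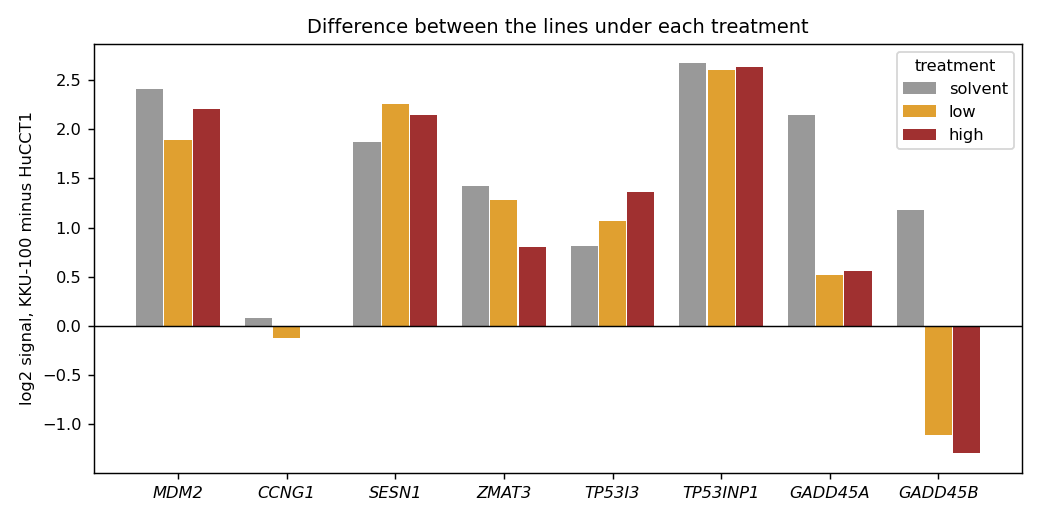
Difference in log2 signal between KKU-100 and HuCCT1 for the 8 genes under solvent, low dose and high dose, 1 array of each line a bar. The bars of TP53INP1 stand at 2.67, 2.60 and 2.63, and those of GADD45B at 1.18, −1.11 and −1.30.

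Among 45 other genes of the p53 pathway (targets in arrest, death, repair and metabolism), 43 were measured. In KKU-100, 39 were past the level filter, of which the low dose had 7 rising and 13 falling, the high dose 3 rising and 5 falling, and 7 rose and 2 fell between the doses, with medians of −0.05, 0.07 and 0.06. In HuCCT1, 38 were past it, of which the low dose had 3 rising and 4 falling, the high dose 8 rising and 4 falling, and 12 rose and 3 fell between the doses, with medians of 0.08, 0.29 and 0.33. The list moved in both directions in each comparison, but not evenly. In KKU-100 under the low dose, 13 of 39 fell and 7 rose, where 7.32% of all genes fell and 9.75% rose. Between the doses in HuCCT1, 12 of 38 rose and 3 fell, where 6.57% of all genes rose and 4.64% fell. The high dose array of HuCCT1 against solvent had 8 of 38 up and 4 down, beside 8.23% and 6.44% of all genes. For its low dose array the counts were 3 up and 4 down, beside 3.68% and 3.32%. KKU-100 had 3 of 39 up and 5 down with the high dose, beside 9.44% and 4.86% of all genes. Its high against low dose comparison had 7 up and 2 down, beside 4.53% and 1.74%. Whether the list differed from all genes was not tested.

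SESN2 is the stress-induced relative of SESN1 that restrains mTORC1 and is also known as a target of ATF4. In each line its arrays had the same order of signal as those of GADD45A, but the sizes of change differed. SESN2 read 751, 204 and 852 in KKU-100 and 96.0, 210 and 631 in HuCCT1, for solvent, low and high dose. The low dose array was the dimmest in KKU-100, and the 3 arrays of HuCCT1 ran upward. Its log2 fold changes were −1.88 and 0.18 in KKU-100 and 1.13 and 2.72 in HuCCT1, and its other probe set had −1.76 and 0.20 in KKU-100 and 1.33 and 2.89 in HuCCT1.

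Of the 39 list genes past the level filter in KKU-100, 3 rose and 3 fell past 1.5-fold under both doses, which share a solvent array, where 5.33% of all genes rose and 3.58% fell under both. Higher were DRAM1, a lysosomal protein of autophagy (0.90 and 1.14), FBXO22, an F-box protein (0.70 and 0.77), and DDB2, which recognizes ultraviolet damage in DNA (0.69 and 0.60). Lower at both doses were PPM1D, the phosphatase WIP1 that resets p53 signalling (−1.14 and −1.09), BTG1, an antiproliferative relative of BTG2 (−1.66 and −0.90), and PLK3, a stress kinase (−0.86 and −0.63). As medians over their probe sets FBXO22 (0.23 and 0.48) and PLK3 (−0.45 and −0.48) were within 1.5-fold at both doses, and PPM1D was at −0.58 and −0.73. In HuCCT1, 3 of 38 rose and 3 fell under both doses, where 2.08% of all genes rose and 1.93% fell. SESN2, TRIM22, an interferon-induced antiviral protein (0.97 and 1.64), and ANKRA2 (0.61 and 1.08) were higher at both doses. TNFRSF10A, a death receptor for TRAIL (−1.21 and −1.40), SFN, the checkpoint protein 14-3-3 sigma (−0.61 and −1.31), and AEN, a nuclease of apoptosis (−1.12 and −0.79), were lower.

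CDKN1A, the cell cycle inhibitor p21 and the best known p53 target, was named after its values were seen. It read 4581, 2834 and 3384 in KKU-100 and 694, 403 and 620 in HuCCT1, so that solvent was the brightest array of each line, and the low and high dose lay at −0.69 and −0.44 (KKU-100) and at −0.79 and −0.16 (HuCCT1) on the log2 scale. MDM4, the partner of MDM2 that blocks p53, read 557, 557 and 781 in KKU-100 and 374, 380 and 531 in HuCCT1, with 0.49 and 0.50 at the high dose and limma adjusted p = 0.218. Its 6 probe sets did not move alike at that dose. They ran from −0.44 (below the level filter) to 0.66 in KKU-100 and from 0.11 to 0.63 in HuCCT1. TP73, a transcription factor of development and stress, lay between 28.1 and 40.6 on the 6 arrays.

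**Figure D4:**
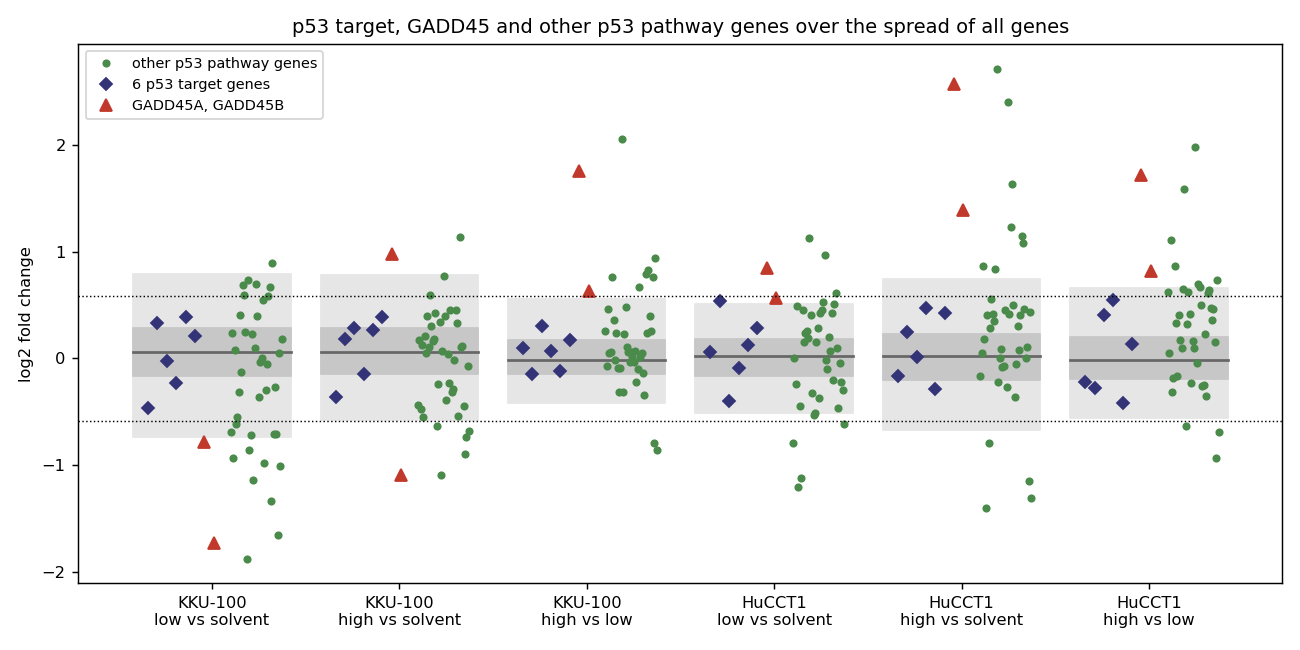
Log2 fold change in 6 comparisons of 2 arrays (KKU-100 left, HuCCT1 right) of the 6 p53 target genes (diamonds), GADD45A and GADD45B (triangles) and the other p53 pathway genes past the level filter (green points); grey boxes span the 5th to 95th and the 25th to 75th percentile of all genes, grey lines their median, and dotted lines 1.5-fold. Each gene stands by its brightest probe set. The diamonds stay between −0.46 and 0.55, while the triangles reach 2.57 in HuCCT1 and −1.73 in KKU-100.

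Likeness of course was measured by the Euclidean distance over the 4 log2 fold changes against solvent, among 12033 genes past the level filter in both lines, as a description without a test. The genes closest to GADD45A were ENTREP1 (distance 0.590), SEPSECS, an enzyme of selenocysteine synthesis (0.631), TUBE1, epsilon tubulin (0.650), ICAM1, an adhesion molecule induced by NF-kB (0.801), and DDIT3, the stress transcription factor CHOP (0.952). The low and high dose values of DDIT3 were −1.38 and 0.81 for KKU-100 and 1.20 and 3.20 for HuCCT1. Closest to GADD45B were SOCS1, a feedback inhibitor of cytokine signalling (0.449), GRHL1, an epithelial transcription factor (0.653), EIF2AK3, the endoplasmic reticulum stress kinase PERK (0.694), LIFR, the receptor of leukemia inhibitory factor (0.712), and TIAM2, an activator of RAC (0.728). Those of SOCS1 were −1.81 and −1.11 for KKU-100 and 0.69 and 1.81 for HuCCT1, lower at both doses in the first line and higher at both in the second. The 4 values of a gene rest on 6 arrays and 2 shared solvent arrays.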

How the data were processed

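The authors deposited linear signal intensities per probe set, made with MAS5 per the labels (version not given in the sources used here). The study's methods name a log2 normalization in GeneSpring, which these linear values do not carry. Signals were log2 transformed without further scaling. Of 54675 probe sets, 62 controls were left out, 41091 carried 1 gene symbol, 1801 several and 11721 none in the array annotation, whose symbols were updated by gene ID from RefSeq. A gene was read by its probe set of highest mean signal. The level filter was the 50th percentile of mean log2 signal, within a line (12694 genes in KKU-100, 12789 in HuCCT1) or over all arrays (12833). Calls used 1.5-fold, or limma 3.58.1 in R 4.3.3 (lmFit, eBayes with trend, residual df 2, prior df 3.42), its p-values adjusted by Benjamini-Hochberg over all genes with a limit of 0.05. The fit was also run on simulated data with the same high dose change in both lines, a setting that neither GADD45A nor GADD45B met. At the high dose GADD45A had 0.98 in KKU-100 and 2.57 in HuCCT1, and GADD45B had −1.09 and 1.39. The number of arrays limits the precision. The genes, lists and tests were chosen with earlier results of these data known, and both comparisons between lines were added after seeing the data. Named other pathway genes were those that passed 1.5-fold with 1 sign under both doses of a line, and likeness took the 5 closest genes. Alternatives were quantile normalization, median centring, a floor at the 20th percentile, no filter or the 60th percentile, no _x_at and _s_at probe sets, a 2-fold cutoff, medians over probe sets, other eBayes options, all probe sets tested, and each array left out. Python 3.11.15, numpy 2.4.6 and pandas 2.3.3 were used.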

Additional observations from a re-analysis of the deposited data

Results flagged for a closer look

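GADD45A and GADD45B were past 1.5-fold in opposite directions in the 2 lines. At the low dose against solvent GADD45A had a log2 fold change of −0.78 in KKU-100 and 0.85 in HuCCT1. At the high dose GADD45B had −1.09 in KKU-100 and 1.39 in HuCCT1. With 1 array a condition neither difference was tested at its own dose. With both doses taken as repeats, limma gave a difference (KKU-100 minus HuCCT1) of −2.39 for GADD45B (adjusted p = 0.601) and of −1.61 for GADD45A (adjusted p = 0.797). The error of that fit holds the difference between the doses, which for GADD45A was 1.76 in KKU-100 and 1.72 in HuCCT1. Between the doses, without the solvent arrays, both genes were higher at the high dose in both lines.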

How the results depend on the processing

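Of 366 alternative values for the log2 fold changes of single genes, 356 stayed on their side of the cutoff and 9 did not. Of values past the cutoff in the main setting, 1 turned. GADD45B at the high against the low dose in KKU-100 was at −0.20 without _x_at and _s_at probe sets, which leaves its dimmest one. A turn of sign within the cutoff counts among the 356. Without _x_at and _s_at probe sets, MDM2 in KKU-100 turned from −0.46 to 0.53 at the low dose. At the high dose it turned from −0.36 to 0.41, so its direction there depends on the probe set. No filter, the 60th percentile filter and the floor could not alter the values of these genes, and each gave 48 of the 356. The 2-fold cutoff moved only the limit, not the values. Quantile normalization put 2 genes past 1.5-fold in HuCCT1 at the low dose (GADD45B joining GADD45A). Without _x_at and _s_at probe sets, 5 of the 8 genes could be read, with 1 past the cutoff in KKU-100 for the low dose and 1 in each line between the doses. A 2-fold cutoff left 0 in HuCCT1 for the low dose and 1 between the doses, and 1 in each of the 3 comparisons of KKU-100. With medians over all probe sets, 1 was past it in KKU-100 at the high against the low dose. Leaving out 1 array gave between 0 and 2 limma calls among the 8 genes in each of the 3 treatment contrasts. The 2 were GADD45A and GADD45B, and only in fits without a solvent array. Those fits rest on 1 solvent array of 1 line, so their calls hold no spread of solvent. Without the HuCCT1 solvent array limma called both in the low dose (9.97% of all genes called), high dose (4.9%) and between-dose (2.48%) contrasts, and without the KKU-100 solvent array both in the high dose (4.41%) and between-dose (2.35%) contrasts and neither in the low dose one (0.117%). At the high dose GADD45B was at −1.05 without the first and 1.34 without the second, and GADD45A at 0.97 and 2.58. Over the alternatives limma called between 5 and 7 of the 8 genes for KKU-100 against HuCCT1, with 37.6% to 58.3% of all genes called when an array was left out. The number of arrays limits every value.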
